A study of Mus musculus with 18 samples.

Results

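Retnlb-positive goblet cells are mucus-secreting epithelial cells that carry the transcript of resistin-like molecule beta. Goblet cells fill their granules with the gel-forming mucin Muc2 and with partner proteins of the mucus layer, and they release small antimicrobial and signalling proteins with it. Retnlb is known as a secreted protein of goblet cells that acts on bacteria, is most abundant in the large intestine, and is induced in the small intestine by type 2 cytokines during worm infection. Nupr1 is a small stress-response nuclear protein, and Mptx1 is a secreted mucosal pentraxin described mainly in the colon.

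The cells came from the ileal crypts of C57Bl6 mice aged 60-65 days that had received 1 dose of 70 mg/kg tamoxifen and were analysed 5 days later. All mice carried Lgr5-GFP-CreERT2, which puts GFP and a tamoxifen-dependent Cre under the stem cell gene Lgr5, and the nTnG reporter, in which Cre replaces nuclear tdTomato with nuclear EGFP for good. The WT nTnG mice carried nothing else, and in the Setdb1-KO nTnG mice both Setdb1 alleles were floxed around exon 3, so that a cell and its progeny lose this H3K9 methyltransferase only where Cre has acted in an Lgr5-expressing cell. GFP-positive cells were sorted and sequenced by the 10x Genomics 3′ assay, which counts molecules by unique molecular identifiers (UMIs), in 2 libraries per genotype.

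Members were barcodes of the lineage-traced libraries with 500-18000 UMIs, 200-4000 genes and under 5% mitochondrial UMIs, in which Muc2, Zg16, Clca1 and Fcgbp together made up at least 1.5% of the UMIs, Retnlb had at least 3 UMIs, and the Paneth cell defensin genes (names starting Defa) made up under 20%. This gave 78 cells of 26266 barcodes within the limits in the lineage-traced libraries and of 51959 in all single-cell libraries of the series. There were 17 in WT nTnG 1, 2 in WT nTnG 2, 25 in Setdb1-KO nTnG 1 and 34 in Setdb1-KO nTnG 2. The WT nTnG 2 profile therefore rested on 2 cells and 3332 UMIs, against 40447, 86318 and 126143 UMIs in the others. The members were selected on the measured UMIs of Retnlb, the 4 mucus genes, the defensins and the mitochondrial genes, and the values of these genes below are a description with no support drawn from them.

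The 4 libraries held 16881518 to 43046925 UMIs, and the kept barcodes had a median of 970.5 to 2087 UMIs. WT nTnG 2 stood apart by 420596 barcodes with 10 to 99 UMIs, against 11980 to 39527 in the others. Pairs of libraries shared 6 to 25 kept barcodes, and the members shared 0. Defensin transcripts made up 36.5% and 39.5% of the UMIs in empty droplets of the WT nTnG libraries and 16.1% and 24.2% in those of the Setdb1-KO nTnG libraries. Setdb1 had 1, 0, 2 and 1 UMIs in the members, and 3′ counting does not see exon 3, so the deletion was not checked in these cells. GFP had a UMI in 0 of 78 members, which allows a share of cells with a GFP UMI of up to 3.85%, so the sort was not visible in the transcripts.

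The label was checked against its markers. Muc2 had a UMI in all 78 members, but the rule used it, so its presence says nothing of the name. Of the markers outside the rule, Nupr1 had a UMI in 17 of 19 WT and 51 of 59 Setdb1-KO members, and Mptx1 in 1 and 23, with at least 5 UMIs in 0 and 19. Of goblet cell products that the rule did not use, Spink4 had a UMI in all 78 members, Agr2 in 77 and Tff3 in 59. Barcodes without a cell also held these transcripts, with 2481 to 4423 CPM of Agr2, 2072 to 2204 CPM of Tff3 and 313 to 465 CPM of Nupr1. The part of free RNA in the presence of 1 UMI was not tested. Paneth cell transcripts were present as well. The Paneth list summed to 83789 and 85834 CPM in WT and 25128 and 35745 CPM in Setdb1-KO members, and defensins reached 17.7% of the UMIs of a single member. CPM are UMIs of a gene or list scaled to a common total per library and class. Empty droplets held 425100 and 475948 CPM of that list in WT and 193504 and 284344 CPM in Setdb1-KO libraries, and the part of free RNA was not tested. Of its genes, the enzyme Lyz1 reached 3 UMIs in 4 of 78 members. Of other cells, the division marker Mki67 had a UMI in 3 and the crypt base gene Olfm4 in 19, and all T cell, B and plasma cell and stromal and erythroid markers were at 0. The Mptx1 of WT was 3 UMIs in 1 cell, so this marker was seen in part of the Setdb1-KO members and hardly in WT.

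The threshold on Retnlb divided a thin distribution. Of 2502 barcodes that met the goblet cell rule, 2323 had 0 Retnlb UMIs, 73 had 1, 28 had 2, 14 had 3, 13 had 4 and 51 had 5 or more. Just outside the threshold lay 28 cells and just inside it 14, and 36 of the 78 members had at least 10. Members had a median of 5, 6, 5 and 28 Retnlb UMIs in WT nTnG 1, WT nTnG 2, Setdb1-KO nTnG 1 and Setdb1-KO nTnG 2, with highest counts of 13, 9, 122 and 162. At the members' median depth of 1995, 1666, 2155 and 3452 UMIs, the empty-droplet profile would give 0.0964, 0.0287, 0.169 and 0.385 Retnlb UMIs. A mucus gene share below 2%, near the lower limit of the rule, was found in 26 members.

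Among lineage-traced goblet cells, the share that was Retnlb-positive was higher in both Setdb1-KO libraries than in either WT library. It was 2.14% (95% Wilson interval 1.34 to 3.39) of 796 cells in WT nTnG 1 and 0.755% (0.207 to 2.71) of 265 in WT nTnG 2. In Setdb1-KO nTnG 1 it was 3.59% (2.44 to 5.25) of 696 cells and in Setdb1-KO nTnG 2 4.56% (3.28 to 6.31) of 745. Intervals cover counting error only. The libraries of the genotypes did not overlap, with means of 1.45% ± 0.977 (SD, n = 2) in WT nTnG and 4.08% ± 0.687 (SD, n = 2) in Setdb1-KO nTnG, a 2.82-fold ratio that was 5.40 without WT nTnG 1 and 1.91 without WT nTnG 2. An exact two-sided permutation test gave p = 0.333, the smallest that 2 against 2 libraries allow, so the design could not pass a threshold of 0.05. In the Lgr5+ sort of the same study, from mice without the nTnG reporter, the same rule gave no such order. The paper describes mature goblet cells of that sort as carried along without GFP, so whether Cre had acted in them is not known. The share there was 0.309% of 648 and 0.835% of 599 goblet cells in WT. In Setdb1-KO it was 0.752% of 399 and 0.331% of 1509, so the genotypes overlapped.

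As a share of all kept barcodes, Retnlb-positive goblet cells made up 0.224% and 0.0541% in WT nTnG and 0.525% and 0.333% in Setdb1-KO nTnG. The means were 0.139% ± 0.12 and 0.429% ± 0.136 (SD, n = 2 each, exact two-sided permutation p = 0.333), again without overlap, and their ratio of 3.08 was 7.93 without WT nTnG 1 and 1.92 without WT nTnG 2. Because a threshold of 3 UMIs is met more easily by deep cells, every barcode was also thinned to 1000 UMIs, with 1 Retnlb UMI required and shallower barcodes left out, which kept 5356, 2124, 2312 and 7873 of the 7589, 3696, 4758 and 10223 barcodes. The share among goblet cells was then 3.47% and 3.42% in WT nTnG and 6.48% and 6.21% in Setdb1-KO nTnG. The order of the genotypes was the same after thinning, and the ratio fell to 1.84. Barcodes outside the goblet cell class with under 3 Retnlb UMIs had at least 1 in 1.09% and 2.02% of WT nTnG cells and in 5.04% and 3.44% of Setdb1-KO nTnG cells, and empty droplets held 48.3 and 17.2 CPM of Retnlb against 78.6 and 111 CPM. Background Retnlb was thus also higher in both Setdb1-KO libraries, and its part in the difference was not tested.

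The members fell into cells rich and cells poor in the classical goblet cell products Zg16, a lectin of the mucus layer, and Tff3, the intestinal trefoil factor. This division, at Zg16 and Tff3 together making up 1% of UMIs, was chosen after the values were seen and carries no test. By it 40 members were rich and 38 poor. The poor cells were 12 of 17 (70.6%) in WT nTnG 1, 2 of 2 in WT nTnG 2, 7 of 25 (28.0%) in Setdb1-KO nTnG 1 and 17 of 34 (50%) in Setdb1-KO nTnG 2. Among goblet cells with under 3 Retnlb UMIs, called Retnlb-negative here, the poor cells made up 22.6%, 15.6%, 5.22% and 8.44% in the same order. Poor cells were thus a larger share of the Retnlb-positive than of the Retnlb-negative cells in each of the 4 libraries, and a smaller share in both Setdb1-KO libraries than in either WT library in both classes.

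Summed over libraries, Muc2 stood at 17270 CPM in the poor members and at 6126 CPM in the rich ones. Since the rule asks for 1.5% of UMIs from the mucus genes, members with little Zg16 had to reach it through Muc2, Clca1 or Fcgbp, and this difference is largely set by the rule. The genes that follow were chosen after their values were seen. Nupr1 stood at 8636 against 1322 CPM, Oit1, a secreted protein of epithelial cells, at 2138 against 277 CPM, and Plet1, a surface glycoprotein, at 595 against 65.7 CPM. The sialyltransferase St6galnac6 had 243 against 7.3 CPM, the galactosyltransferase B3galt5 293 against 51.1 CPM, and Mt3, a metallothionein, 578 against 94.9 CPM. Nupr1 was found in 37 of 38 poor and 31 of 40 rich members. Also higher in the poor members were Gfpt1, the entry enzyme of hexosamine synthesis, at 1199 against 430.8 CPM, the ribophorin Rpn2 at 226 against 51.1 CPM, the goblet cell transcription factors Spdef at 142 against 29.2 CPM and Creb3l1 at 226 against 65.7 CPM, and the secreted ribonucleases Ang at 377 against 117 CPM and Rnase4 at 369 against 94.9 CPM.

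In the rich members Zg16 stood at 41770 against 771 CPM and Tff3 at 7827 against 964 CPM, which the division itself used. The other genes named here were likewise chosen after their values were seen. Reg3g, a C-type lectin that acts on bacteria, stood at 4147 CPM in the rich and 436 CPM in the poor members, the antimicrobial ribonuclease Ang4 at 2804 and 285 CPM, and the galectin Lgals2 at 9097 and 1333 CPM. Fcgbp, a protein that binds within the mucus, had 4914 and 1191 CPM and the metalloprotease Clca1 5585 and 1677 CPM. Olfm4, a secreted protein of crypt base cells, had 496 and 67.1 CPM and was found in 16 rich and 3 poor members. Some of these sums came from a few cells. The 4 cells with the most Ang4, all of Setdb1-KO nTnG 2, held 289 of its 384 UMIs in the rich members, and without them, a value chosen after seeing the data, Ang4 stood at 764 CPM. The 4 highest cells of each gene also held 437 of 765 Clca1 UMIs, 301 of 568 Reg3g UMIs and 37 of 68 Olfm4 UMIs, those of Reg3g and Olfm4 not all from that library, and without them the rich members held 2639, 2297 and 286 CPM. The lowest Zg16 and Tff3 share among the 4 Ang4 cells was 1.23%, near the division.

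**Figure D1:**
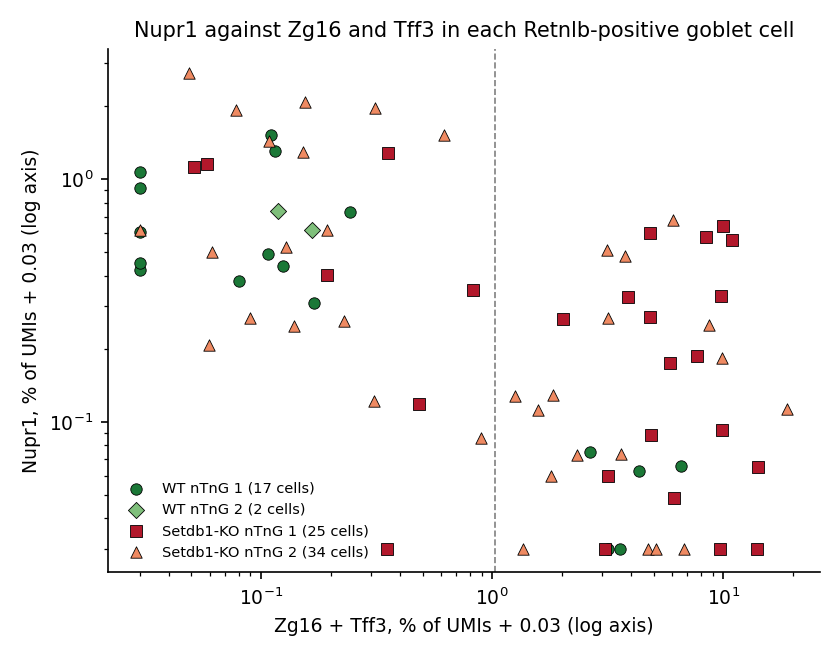
Nupr1 (percent of UMIs, y axis) against Zg16 and Tff3 together (percent of UMIs, x axis) in each of the 78 members, with 0.03 added and both axes on a log scale; the colour and shape of a point give the library, and the dashed line marks the division at 1%. The 38 members left of the line held 8636 CPM of Nupr1 in sum and the 40 right of it 1322 CPM.

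Retnlb-positive cells were more frequent among the poor than among the rich goblet cells in every library. Among poor cells they were 6.38% (95% Wilson interval 3.69 to 10.8) of 188 in WT nTnG 1, 4.65% (1.28 to 15.5) of 43 in WT nTnG 2, 16.7% (8.32 to 30.6) of 42 in Setdb1-KO nTnG 1 and 22.1% (14.3 to 32.5) of 77 in Setdb1-KO nTnG 2. Among rich cells they were 0.822%, 0%, 2.75% and 2.54%, of 608, 222, 654 and 668 cells. The value of 0% in WT nTnG 2 is 0 of 222 cells with an upper Wilson bound of 1.7%. The Setdb1-KO libraries lay above the WT libraries within the poor and within the rich cells, so the higher share in Setdb1-KO was present in both kinds.

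**Figure D2:**
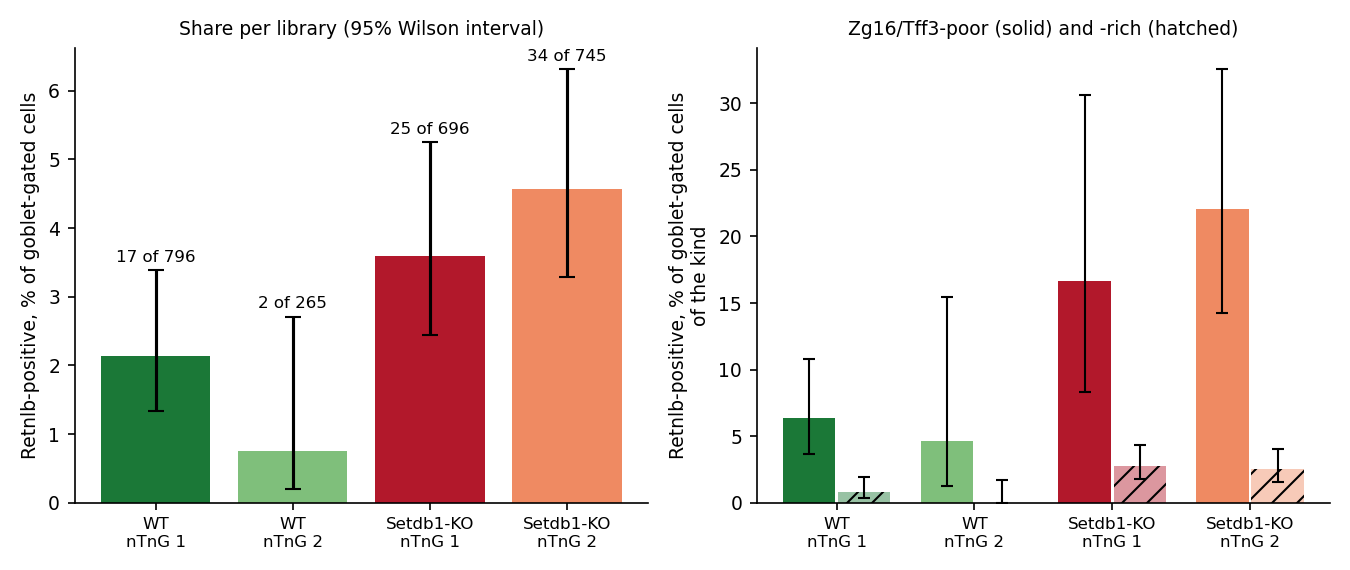
Left, share of goblet cells that were Retnlb-positive (percent, y axis) in each lineage-traced library; right, the same share within goblet cells poor (solid bars) and rich (hatched bars) in Zg16 and Tff3; vertical lines are 95% Wilson intervals. Both Setdb1-KO nTnG libraries, at 3.59% and 4.56%, lay above both WT nTnG libraries, at 2.14% and 0.755%, and within each library the share was higher among the poor cells.

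The high Nupr1 of the poor members was shared by poor Retnlb-negative goblet cells, which have under 3 Retnlb UMIs. In poor cells Nupr1 stood at 6163, 6303, 7171 and 10939 CPM in the Retnlb-positive members of WT nTnG 1, WT nTnG 2, Setdb1-KO nTnG 1 and Setdb1-KO nTnG 2. In the Retnlb-negative poor cells of these libraries it stood at 9007, 9104, 4873 and 16285 CPM. The Retnlb-positive cells were thus lower in 3 libraries and higher in 1. Oit1 was 2713, 2401, 1606 and 2203 CPM in the positive and 1900, 2060, 1501 and 2022 CPM in the negative poor cells, and Plet1 lay between 526 and 900.4 CPM in the positive and between 536 and 695 CPM in the negative.

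Without that division, 239 of 1986 genes with a mean of at least 50 CPM in the higher class, a share of 12%, stood higher in Retnlb-positive than in Retnlb-negative goblet cells in all 4 libraries, and 333 of 1956 genes, a share of 17%, stood lower. These genes describe the rule's own contrast and carry no test. In the members of WT nTnG 2, 1 UMI is 300.1 CPM, so a gene of lower level could stand lower there through 0 UMIs alone. The 20 named as most consistently higher held Retnlb and Muc2, which the rule used. The others were Oit1, Prnp, B3galt5, Mt3, Trmt1, Plet1, St6galnac6, Sycn, Cd177, Maged1, Slc39a8, Ceacam10, Gne, Cd24a, Klk1, Pibf1, Tgoln1 and Tstd1.

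Oit1 stood at 1780, 2401, 904 and 1070 CPM in the Retnlb-positive cells of WT nTnG 1, WT nTnG 2, Setdb1-KO nTnG 1 and Setdb1-KO nTnG 2. The Retnlb-negative cells held 502, 340, 190 and 228 CPM, and the positive cells were the higher in each library. Sycn, syncollin, a secretory granule protein known from pancreatic acinar cells, stood at 668, 1801, 753 and 2941 CPM in the positive cells and at 242, 184, 41.5 and 57.8 CPM in the negative. Klk1, a secreted kallikrein protease, had 2794, 3001, 2247 and 2513 CPM against 1373, 1567, 711 and 972 CPM. Gne, the first enzyme of sialic acid synthesis, had 297, 300.1, 278 and 103 CPM against 102, 42.8, 55.4 and 47.4 CPM. The values of WT nTnG 2 for low genes rest on 1 to 3 UMIs.

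The 15 genes most consistently lower included Rbp2 and Fabp6. Rbp2, the retinol-binding protein of absorptive cells, had 148, 300.1, 11.6 and 7.93 CPM in the positive cells, against 581, 1905, 197 and 165 CPM in the negative. Fabp6, the ileal bile acid-binding protein, had 98.9, 0, 23.2 and 47.6 CPM against 376, 880, 87.4 and 167 CPM. In the empty droplets Rbp2 stood at 554 to 1349 CPM and Fabp6 at 338 to 1336 CPM, above both classes of their library except for Rbp2 in the Retnlb-negative cells of WT nTnG 2. The part of free RNA in these values was not tested. The enterocyte list as a whole did not go one way. Its summed level was 9692 CPM in the positive and 8343 CPM in the negative cells of WT nTnG 1, 3001 and 19532 CPM in WT nTnG 2, 5955 and 4164 CPM in Setdb1-KO nTnG 1 and 4439 and 5530 CPM in Setdb1-KO nTnG 2, so the positive cells were the higher in 2 of 4 libraries. That list holds Reg3g, at 5118, 300.1, 2317 and 1681 CPM in the positive and 2382, 4316, 976 and 1719 CPM in the negative cells. The small intestine identity list was lower in the positive cells of all 4 libraries. It summed to 2373, 2401, 1182 and 1475 CPM in the positive cells against 4228, 10836.5, 2343 and 3008 CPM. In the empty droplets it held 3493 to 8072 CPM. The rest of the 15 lower genes were Ces2a, Birc5, Serpina1b, Krt20, Gsta1, Me2, Lgals2, Psmb8, Apoc2, Smim24, Tff3, Arl6ip1 and the rule gene Fcgbp. Of the 15, all but Rbp2, Lgals2 and Fcgbp had 0 UMIs in the members of WT nTnG 2, and Ces2a had 0 in the members of all 4 libraries.

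The Lgr5+ sort of the same study, from mice without the nTnG reporter, gave libraries that the choice of cells had not used. The same rule found 2, 5, 3 and 5 Retnlb-positive goblet cells there. In edgeR's quasi-likelihood test, with the library as a block and Benjamini-Hochberg adjustment, 23 of 7346 genes (0.313%) differed between positive and negative goblet cells of that sort, 15 of them higher (0.204%) and 8 lower (0.109%). Of the 23 genes, 17 lay outside the rule. The rule genes among them, Retnlb included, were used to choose the cells, and no support is drawn from those calls. With TMM factors over all genes 9 were higher and 23 lower, and the median over all genes moved from -0.10 to -0.61 on the log2 scale. Of the genes leading upward in the lineage-traced cells, 14 could be tested. Of these, 8 had the same sign and 0 passed (0 at an unadjusted p under 0.05, 0 by DESeq2). Of 14 tested genes leading downward, 10 had the same sign and 2 passed, Rbp2 with a log2 difference of -1.77 and Fabp6, which had 0 UMIs in the 15 positive cells (3 at an unadjusted p under 0.05, 0 by DESeq2). Neither passed when any 1 of the 4 libraries was left out. The Oit1, Sycn and Klk1 values in that sort were 0.65, -0.78 and 0.21 on the log2 scale, none passing and Sycn with the opposite sign. In simulated counts for this comparison, 147 of 200 genes changed 4-fold (73.5%) and 199 of 200 changed 16-fold were recovered. False calls numbered 4 and 21, or 2.65% and 9.55% of the calls. The changed genes were drawn from the most abundant ones. Their recovery therefore does not cover low genes such as Sycn, which had 0, 2, 0 and 0 UMIs in the positive cells of that sort.

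Expression was compared between the genotypes on UMIs summed over the members of each library. By the quasi-likelihood test of edgeR, adjusted after Benjamini-Hochberg, 7 of 763 genes (0.917%) differed, 2 higher (0.262%) and 5 lower (0.655%) in Setdb1-KO. Over all genes tested the median log2 fold change was -0.08, and 52 genes had an unadjusted p under 0.05. Without WT nTnG 1, which left 2 WT cells, 9 genes passed, 7 higher and 2 lower, of which 3 were among the 7. A fit without a library leaves 1 group with a single library, which is assumed to vary like the other group. The count was 14 without WT nTnG 2, 21 without Setdb1-KO nTnG 1 and 17 without Setdb1-KO nTnG 2, and 2 by DESeq2 (Mptx1 and Clca1). With DESeq2 size factors 2 were higher and 2 lower, and with TMM factors over all genes 2 higher and 1 lower. Groups that did not overlap were no rare event, since 267 of the 763 genes (35%) showed none. Outside the genes of the rule, 2 of 739 genes (0.271%) differed, Mptx1 higher and Mptx2 lower. Members of Setdb1-KO and WT also differed in the share of cells poor in Zg16, given above, and its part in these values was not tested.

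Mptx1 was the gene with the smallest p. Members held 74.2 and 0 CPM in WT nTnG 1 and 2, from 3 and 0 UMIs, and 5584 and 20318 CPM in Setdb1-KO nTnG 1 and 2, from 482 and 2563 UMIs. A single cell held 424 of the 482 UMIs, and without it Setdb1-KO nTnG 1 stood at 746 CPM. The WT values did not exceed the 89.4 and 65.3 CPM of their empty droplets, and the Setdb1-KO values exceeded the 157 and 230.4 CPM of theirs. The log2 fold change was 7.35 (SE 0.84, edgeR quasi-likelihood adjusted p = 0.000444), and it depends on how zero counts are handled. Without WT nTnG 1, where the WT count was 0, it was 12.85 (SE 1.74). Summed over libraries, Setdb1-KO had 3045 Mptx1 UMIs of 212461 and WT 3 of 43779, a ratio of 209 with an exact interval of 71.5 to 1015 that covers counting error only. Without that cell, an alternative chosen after seeing the data, the log2 fold change was 7.05 (SE 1.24, edgeR adjusted p = 0.00409). The gene was past the threshold in 17 of 18 fits, and with members thinned to 1000 UMIs before summing the log2 fold change was 7.49 and the adjusted p 0.0755. In the Retnlb-negative goblet cells Mptx1 stood at 161, 37.1, 182 and 202 CPM, below the Setdb1-KO members.

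The Mptx1 promoter as RefSeq annotates it on GRCm38.p6, chr1:174330268-174330567 on the plus strand, is shown because Mptx1 was the gene with the smallest p. The stretch runs from 250 bases before to 50 after the annotated start, and the capitals mark the TATA motif (TATAA) 29 bases before the start.
Mptx1: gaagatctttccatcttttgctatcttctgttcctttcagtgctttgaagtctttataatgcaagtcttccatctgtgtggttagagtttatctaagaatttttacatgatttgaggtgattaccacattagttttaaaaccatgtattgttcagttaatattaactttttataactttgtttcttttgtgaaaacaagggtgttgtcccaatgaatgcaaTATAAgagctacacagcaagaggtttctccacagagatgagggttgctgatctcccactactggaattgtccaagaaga
The TATAA letters were searched from 40 to 20 bases before the start, on the strand of the gene, and 3.52% of 32851 promoter windows of the same length held them there. Motifs of Cdx2 (TTTATNG, in 10.9% of windows) and of STAT6 (in 6.95%), searched on both strands, had no match in this window. The motif of ATF4 (TGATGNAA, in 3.97%) had none here either. These matches describe letters and say nothing of which factor acts.

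Within Setdb1-KO, Mptx1 was carried by a subset of the members. At least 5 Mptx1 UMIs were found in 0 of 17, 0 of 2, 3 of 25 and 16 of 34 members of WT nTnG 1, WT nTnG 2, Setdb1-KO nTnG 1 and Setdb1-KO nTnG 2. WT thus had 0 of 19, for which counting error alone allows a share of up to 15.8% of these cells, 17 of them from 1 library. The 2 Setdb1-KO libraries differed, with most such cells in the second. This division was made after the values were seen and carries no test. The 19 cells had a median of 39 Mptx1 UMIs (range 6 to 868), and 13 of them were poor in Zg16 and Tff3 and 6 rich. They held a median of 37 Retnlb UMIs (range 4 to 162), against 6 (3 to 72) in the 40 other Setdb1-KO members and 5 (3 to 13) in WT. Median depth was 3378, 2869 and 1995 UMIs in the 3 sets, and the part of depth in the Retnlb difference was not tested.

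Between the Mptx1-rich and the other Setdb1-KO members, genes chosen after their values were seen differed in both directions in sums over both libraries. Sycn stood at 4825 against 538 CPM and was found in 19 of 19 against 20 of 40 cells. Ang4 stood at 4332 against 546 CPM, the trypsin inhibitor Spink1 at 2492 against 196 CPM, Clca1 at 8743 against 2110 CPM, and the ER protein Fkbp11 at 693 against 182 CPM. Spink1 was found in only 7 of the 19 cells. For each gene the 4 cells with the highest counts, all of Setdb1-KO nTnG 2, held 289 of 325 Ang4 UMIs, 181 of 187 Spink1 UMIs, 437 of 656 Clca1 UMIs and 182 of 362 Sycn UMIs. Without them, a value chosen after seeing the data, the rich cells held 577 CPM of Ang4, 96.2 CPM of Spink1, 3512 CPM of Clca1 and 2988 CPM of Sycn, so Ang4 then stood close to the other members and Spink1 below them. Lower were Olfm4 at 80 against 502 CPM, the lectin Reg4 at 533 against 1601 CPM, the lectin Itln1 at 240 against 910 CPM, the hormone precursor Sct at 120 against 618 CPM, the chemokine Ccl6 at 440 against 1026 CPM and the metalloprotease Mmp7 at 0 against 349 CPM.

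Within the libraries, Sycn stood at 2041 CPM in the 3 rich and 434 CPM in the 22 other members of Setdb1-KO nTnG 1, and at 5650 and 645 CPM in the 16 rich and 18 other members of Setdb1-KO nTnG 2. Clca1 had 7405 and 3051 CPM in the first library and 9140 and 1157 CPM in the second, and Fkbp11 466 and 159 CPM and then 760.2 and 205 CPM. Ang4 went the other way in the first library, with 175 CPM in the rich and 809.6 CPM in the other members, against 5563 and 278 CPM in the second. Spink1 stood at 175 and 145 CPM in the first, from 3 and 10 UMIs, and at 3179 and 249 CPM in the second. Reg4 had 0 and 1012 CPM in the first and 691 and 2197 CPM in the second, Sct 0 and 434 CPM and then 155 and 806 CPM, and Olfm4 350 and 708 CPM and then 0 and 293 CPM. The lower Itln1 and Ccl6 came mainly from the first library, with 58.3 and 1489 CPM and 58.3 and 1446 CPM there, against 294 and 322 CPM and 553 and 601 CPM in the second.

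**Figure D3:**
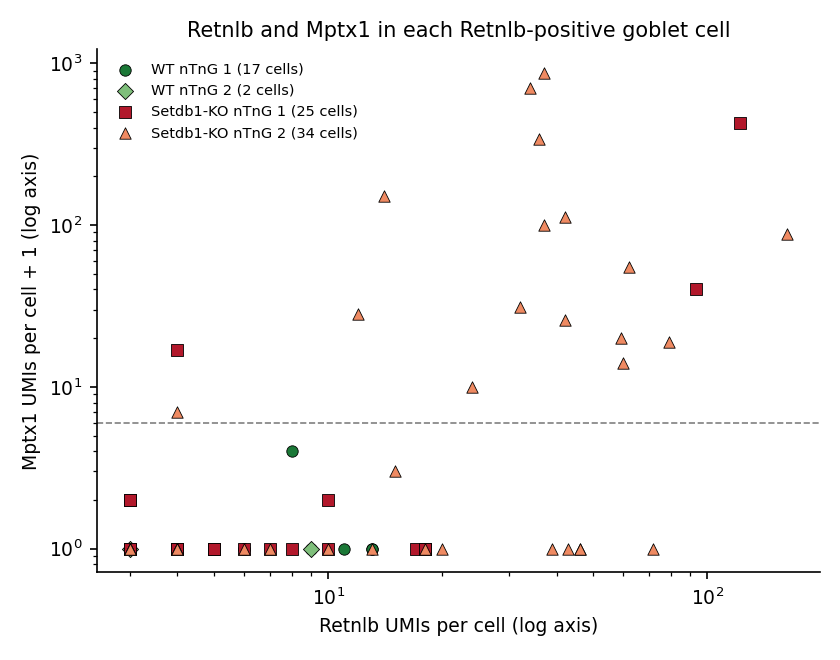
Mptx1 UMIs with 1 added (y axis) against Retnlb UMIs (x axis) in each of the 78 members, both axes on a log scale; the colour and shape of a point give the library, and the dashed line marks 5 Mptx1 UMIs. The 19 cells on or above the line all belonged to Setdb1-KO nTnG, 3 to the first and 16 to the second library, with a median of 37 Retnlb UMIs.

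Cells with Mptx1 were not all inside the rule. Among all kept barcodes, at least 5 Mptx1 UMIs were found in 29, 7, 94 and 106, of which 0, 0, 15 and 33 had at least 3 Retnlb UMIs. Cells with at least 3 Retnlb UMIs outside the goblet cell class numbered 16 and 8 in WT nTnG and 76 and 118 in Setdb1-KO nTnG. Of these 218 cells, 180 had at least 5 Muc2 UMIs and 22 reached the defensin limit. Their median mucus gene share was 0.855%, 0.965%, 0.779% and 0.594% in the 4 libraries, below the limit of 1.5%. Mptx1 stood in them at 27.2 and 71.6 CPM in WT nTnG and at 2854 and 5470 CPM in Setdb1-KO nTnG, so the higher level was also seen outside the mucus limit.

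Mptx2, a paralog of Mptx1 known from Paneth cells, was lower in Setdb1-KO members. It stood at 494 and 600.2 CPM in WT, from 20 and 2 UMIs, and at 46.3 and 47.6 CPM in Setdb1-KO, from 4 and 6 UMIs. The log2 fold change was -3.53 (SE 0.62, edgeR adjusted p = 0.0114), and DESeq2's Wald test, with -3.56, did not pass. With mucus genes at 3% of UMIs, where WT nTnG 2 had 0 members, it was -3.21. Without WT nTnG 1 the gene fell under the filter on low counts and has no value. In Retnlb-negative goblet cells it stood at 429, 443, 75.3 and 46.1 CPM and in empty droplets at 2279, 1900, 567 and 587 CPM. Both WT values thus lay above both Setdb1-KO values in the other goblet cells and in the droplets without a cell as well, and the part of free RNA was not tested.

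Of the Paneth cell list, 17 genes were tested and 5 were lower in Setdb1-KO, Mptx2 and the defensins Defa22, Defa21, Defa30 and Defa29. These 5 were all the lower genes among the 763 tested (0.655%). The defensins, which the rule used and which are therefore a description, are a multigene family of near-identical copies whose split between genes is uncertain. Defa30, for one, stood at 14092 and 19208 CPM in WT and at 2294 and 5367 CPM in Setdb1-KO, and at 109549, 110039, 47241 and 72233 CPM in the empty droplets. Summed over the list the members held 83789 and 85834 CPM in WT and 25128 and 35745 CPM in Setdb1-KO, the Retnlb-negative cells 89884, 105978, 26054 and 31942 CPM, and the empty droplets 425100, 475948, 193504 and 284344 CPM. The list moved in the same direction in all 3, and the part of free RNA in the members' difference was not tested. None of the 4 defensins passed in every fit that left out a library: without WT nTnG 1 the log2 fold changes of Defa22, Defa21 and Defa29 were -1.91, -1.72 and -1.17, without Setdb1-KO nTnG 1 those of Defa30 and Defa29 were -1.66 and -1.71, and without Setdb1-KO nTnG 2 that of Defa21 was -1.65, all short of the threshold.

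Clca1, which cleaves mucin in the mucus layer and belongs to the rule, stood at 470 and 0 CPM in WT members, from 19 and 0 UMIs, and at 3916 and 4820 CPM in Setdb1-KO. The Retnlb-negative cells held 2621, 2182.4, 2408 and 2873 CPM, so that WT members lay below and Setdb1-KO members above the other goblet cells of their library. Its fitted log2 fold change was 3.26 (SE 0.48), and over the 18 fits it lay between 2.19, at Retnlb of at least 2 UMIs, and 11.31, without WT nTnG 1, where the WT count was 0. Zg16, another rule gene, stood at 10384, 1200, 30492 and 21856 CPM and its value of 1.84 lay between 0.21, at Retnlb of at least 2 UMIs, and 4.65, without WT nTnG 1. Muc2 stood at 18617, 20108, 9650 and 9878 CPM, with -1.03 in a range of -2.04 to -0.72. Fcgbp stood at 4005, 300.1, 3476 and 2790 CPM, with -0.02 in a range of -1.37, at mucus genes of 3% of UMIs, to 3.58, without WT nTnG 1, and Retnlb itself at 2571, 3601, 4414 and 8657 CPM. These 5 genes chose the cells, so their values are a description and no support is drawn from a test of them.

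Nupr1, a marker that the rule did not use, did not pass the test between genotypes. It stood at 4030 and 6303 CPM in WT and at 3916 and 5462 CPM in Setdb1-KO, so the libraries overlapped, and its log2 fold change was -0.11 (SE 0.34, edgeR adjusted p = 0.999). With mucus genes required at 3% of UMIs it was -1.86 (SE 0.57). In that fit WT was 7 cells of WT nTnG 1, as WT nTnG 2 had 0 members. The promoter of Nupr1 on GRCm38.p6 (RefSeq), chr7:126625421-126625720 on the minus strand, is given because ATF4, a factor of the integrated stress response, is known to act on this gene. The capitals mark the only match to the ATF4 motif, on the opposite strand and 110 bases before the start.
Nupr1: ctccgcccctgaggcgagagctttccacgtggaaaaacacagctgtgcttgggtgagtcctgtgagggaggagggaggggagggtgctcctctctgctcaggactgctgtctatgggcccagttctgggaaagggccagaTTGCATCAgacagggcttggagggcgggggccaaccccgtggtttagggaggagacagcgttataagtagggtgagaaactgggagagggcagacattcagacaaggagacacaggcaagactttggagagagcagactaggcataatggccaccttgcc
Other genes of that response were too low to test in the members. Asns, asparagine synthetase, had 3, 0, 6 and 5 UMIs, the folate enzyme Mthfd2 1, 1, 3 and 4, and Atf4 itself 2, 0, 4 and 6.

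Genes that the rule for naming picked but that did not pass were Reg4, Phgr1 and Ifitm3, all with higher values in Setdb1-KO and no overlap. Reg4 stood at 297, 0, 811 and 1506 CPM (log2 fold change 1.97, SE 0.56, edgeR adjusted p = 0.199). It passed at Retnlb of at least 5 UMIs, with 8.89 (edgeR adjusted p = 7.8e-06), where WT nTnG 2 held 1 cell. Other fits left 1 library in a group. Their log2 fold changes were 2.30 without Setdb1-KO nTnG 1, 9.39 without WT nTnG 1 and 0.62 with mucus genes at 3% of UMIs. Phgr1, an epithelial protein, stood at 544, 1200, 1680 and 2164 CPM (log2 fold change 1.43, SE 0.41, edgeR adjusted p = 0.199). Ifitm3, an interferon-induced membrane protein, stood at 0, 0, 290 and 159 CPM (edgeR adjusted p = 0.222), below the 366 and 465 CPM of the Setdb1-KO empty droplets. It passed without Setdb1-KO nTnG 2 (edgeR adjusted p = 0.0121).

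**Figure D4:**
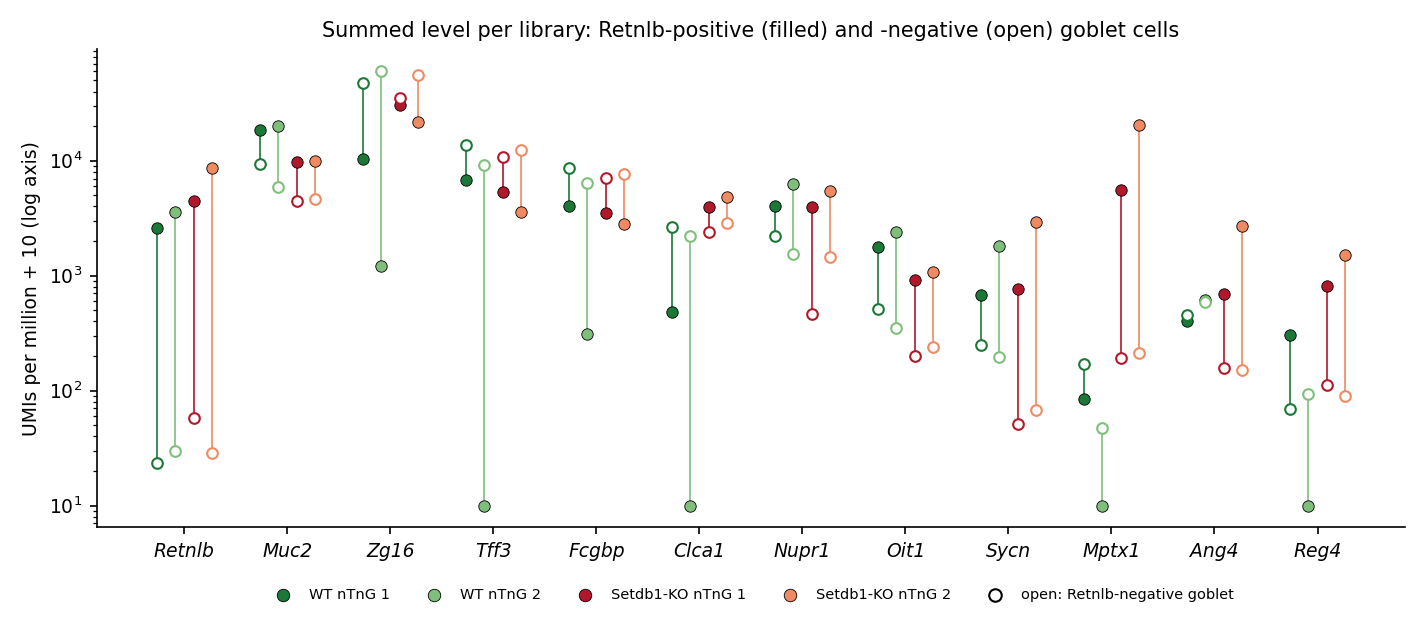
Level of 12 genes (CPM of the summed UMIs with 10 added, log scale, y axis) in Retnlb-positive (filled points) and Retnlb-negative (open points) goblet cells of each lineage-traced library; a line joins the 2 classes of 1 library. Mptx1 stood at 5584 and 20318 CPM in Setdb1-KO members and at 37.1 to 202 CPM in the Retnlb-negative cells of all 4 libraries.

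The gene lists were few in tested members. Over all genes tested, 7 of 763 (0.917%) passed. Of the mucus and secreted products, 16 were tested, with the rule gene Clca1 higher and 0 lower, and a median log2 fold change of -0.27. Of mucin glycosylation genes 6 were tested and none passed (median -0.69), and Galnt7, which starts mucin sugar chains, stood at 569, 900.4, 498 and 285 CPM. Of the endoplasmic reticulum and unfolded protein response genes 23 were tested and none passed (median -0.10), among them Agr2, a disulfide isomerase required for Muc2 folding, at 18815, 14406, 14006 and 20810 CPM. Of 7 secretory lineage factors none passed (median -0.18). Atoh1, the factor that starts the secretory lineage, had 6, 1, 18 and 14 UMIs.

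Among 15 antimicrobial genes Mptx1 was higher and Mptx2 lower (median 0.00), and of 4 large intestine genes Mptx1 alone was higher (median 0.53). Of the type 2 cytokine response only Clca1 and Fcgbp could be tested, both genes that chose the cells, so nothing is read from that list. Of the integrated stress response 1 gene was tested (Nupr1), of small intestine identity 1 (Fabp2, -0.71), of interferon genes 3 (median 1.13), of necroptosis genes 1 (Pycard, 0.53), of p53 targets 1 (Rps27l, -0.15), of crypt base stem cell genes 3 (median 0.02), of enterocyte genes 4 (median -0.36), of enteroendocrine genes 1 (Sct, 2.47) and of the H3K9 methylation machinery 1 (1.12), and none of them passed. MHC class II, dividing, tuft, T cell, B and plasma cell, macrophage and neutrophil, and stromal and erythroid lists had no gene with counts high enough to test. The macrophage and neutrophil list held 0 and 0 CPM in WT and 46.3 and 47.6 CPM in Setdb1-KO members. Those values came from C1qa, with 2 and 4 UMIs, and Cd14, with 2 and 2, and 9 of the 11 genes were undetected. Such counts are too few to compare with the shallower WT members.

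Whether the genotype effect differed between the 2 classes of goblet cell was tested by an interaction term over 8 sums with the library as a block. In the quasi-likelihood test of edgeR, with p-values adjusted by Benjamini-Hochberg, 11 of 4612 genes (0.239%) differed, all 11 (0.239%) with a higher effect and 0 (0%) with a lower effect in the Retnlb-positive cells. Mptx1 led with a log2 difference of 7.02 (SE 0.60, adjusted p = 1.03e-27). This p-value rests on a spread shared over genes and hardly on the spread of Mptx1 between libraries. Spink1 followed with 6.79, Ang4 with 3.64 and Sycn with 3.39, and Sval1, Car2, Reg3b, Ceacam1 and Nupr1 and the rule genes Zg16 and Clca1 completed the set. Cells poor in Zg16 and Tff3 made up 70.6% and 100% of the positive cells in WT and 28.0% and 50% in Setdb1-KO. Among negative cells they made up 22.6% and 15.6% in WT and 5.22% and 8.44% in Setdb1-KO. The part of this difference in the 11 calls was not tested. Without Setdb1-KO nTnG 2 only Zg16, Mptx1 and Clca1 passed, with Spink1 at 4.82, Ang4 at 2.49 and Sycn at 2.52. Without WT nTnG 1 the median over all genes moved from 0.04 to 7.28, and Mptx1 at 13.80, Spink1 at 15.40 and Zg16 at 5.38, against 2.49, are to be read against that shift. Zg16 was at 1.45 without WT nTnG 2 and at 0.93 with Retnlb at 0.1% of UMIs.

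Spink1 and Ang4 showed how much the differences turned on 1 library. Spink1 stood at 49.4, 0, 151 and 1593 CPM in the members and at 473, 660, 61.4 and 93.9 CPM in the Retnlb-negative cells. Ang4 stood at 396, 600.2, 684 and 2703 CPM in the members and at 445, 576, 146 and 142 CPM in the negative cells. Both were thus high in Setdb1-KO nTnG 2, the library with 16 of the 19 Mptx1-rich members. Empty droplets held 528, 506, 253 and 167 CPM of Spink1 and 1169, 1410, 727 and 665 CPM of Ang4. In the Retnlb-negative cells and in the empty droplets both genes were lower in both Setdb1-KO libraries than in either WT library. The part of free RNA in these differences was not tested. For Nupr1 the log2 difference was 1.43 (SE 0.34, edgeR adjusted p = 0.0114), with 4030, 6303, 3916 and 5462 CPM in the members and 2226, 1528, 453 and 1445 CPM in the negative cells. This call was lost in 9 of 11 alternatives, namely without the filter, by DESeq2, with TMM over all genes, without WT nTnG 1, without Setdb1-KO nTnG 1, without Setdb1-KO nTnG 2, without 1 Mptx1-rich cell, and at Retnlb of 5 UMIs or of 0.1%.

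The genotype effect in Retnlb-positive goblet cells was also set against that in the Lgr5+ sort. Whether Cre had acted in the goblet cells of that sort is not known, so their genotype label may not give their Setdb1 state. With an interaction over the 8 libraries of both sorts, 5 of 649 genes (0.77%) differed by edgeR after Benjamini-Hochberg adjustment, 1 with a higher (0.154%) and 4 with a lower effect (0.616%) in the lineage-traced cells, or 1 and 2 with TMM factors over all genes. Sort, reporter and batch cannot be told apart in this comparison. All were rule genes except Lyz1, which stood at 420, 300.1, 57.9 and 182 CPM in the lineage-traced cells and at 307, 584, 12388 and 4339 CPM in the Lgr5+ sort, a log2 difference of -6.31 (SE 1.05, adjusted p = 0.0132). The others were Clca1, Defa30, Defa22 and Defa17, and the count was 0 without WT nTnG 1 (40 genes at an unadjusted p under 0.05), where Clca1 moved from 4.30 to 11.70 and Defa17 from -6.17 to 2.89, and 26 without Lgr5+ Setdb1-KO 2. Mptx1 did not pass in the main fit, but it did without the filter on low counts and with same-numbered libraries as a block. It also passed without Lgr5+ Setdb1-KO 2, a fit that left 1 library in that group. It stood at 675, 73.1, 43 and 4443 CPM in the 2, 5, 3 and 5 cells of Lgr5+ WT 1, Lgr5+ WT 2, Lgr5+ Setdb1-KO 1 and Lgr5+ Setdb1-KO 2. Mptx1 was thus high in 1 of the 2 Setdb1-KO libraries of that sort, and its levels overlapped between genotypes. A single cell held 112 of the 128 Mptx1 UMIs in Lgr5+ Setdb1-KO 2, and 1 cell held 10 of the 11 in Lgr5+ WT 1. The high Lyz1 values also came from few cells. Lgr5+ Setdb1-KO 1 had 189, 96 and 3 Lyz1 UMIs in its 3 cells, and Lgr5+ Setdb1-KO 2 had 4, 2, 0, 88 and 31 in its 5. Defensins, limited by the rule, made up 7.78%, 18.98% and 14.46% of the UMIs of the cells with 189, 96 and 88. The Retnlb-negative goblet cells of Lgr5+ Setdb1-KO 2 held 1454 CPM of Mptx1, with at least 5 UMIs in 348 of 1504 cells, against 100, 37.9 and 167 CPM in those of the other 3 libraries, so high Mptx1 was not limited to Retnlb-positive cells in that library.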

How the data were processed

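Single-cell RNA was measured in GFP-sorted ileal crypt cells, with 4 lineage-traced (nTnG) libraries as the subject and 4 libraries of the Lgr5+ sort for comparison, 2 per genotype. The authors deposited UMI counts per gene and barcode for every barcode, unnormalized and before cells were called. The submitters' processing notes name Cell Ranger 6.1.1 and mm10, while the file headers name Cell Ranger 4. Per the methods, the authors removed doublets for their own analysis, but the deposited counts hold all barcodes. One label text names livers as the tissue, while the extract protocol names ileum.

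Barcodes were gated by the limits given in the report, and those with 10 to 99 UMIs served as empty droplets. Doublets were scored with Scrublet (scanpy 1.11.5), taking the highest scores at 0.8% per 1000 kept barcodes as marked. It marked 0, 0, 1 and 4 members, which were kept in the main results. UMIs were summed per library and class and tested in edgeR 4.0.16 (filterByExpr with a minimum count of 10, TMM factors over the 150 genes of highest mean CPM, quasi-likelihood test, two-sided, Benjamini-Hochberg over all genes tested, threshold 0.05). DESeq2 1.42.0 was an alternative. TMM over all genes tested was the written design. It was replaced by TMM over the 150 genes because it was judged biased in shallow sums in simulated data, and that result is not given here. The factor of WT nTnG 2 was 1.11 over the 150 genes and 1.4 over all genes tested. The printed CPM are UMIs divided by the library's total in that class, without TMM. Shares were compared by exact permutation over libraries.

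The scripts were tested on simulated counts with known changes. For the genotype comparison, 61 of 145 genes changed 4-fold and 127 of 128 changed 16-fold were recovered, so that a smaller change could be missed. False calls numbered 1 and 8, or 1.61% and 5.93% of the calls. For the interaction with Retnlb-negative cells, 0 of 200 and 133 of 200 were recovered, with 0 and 2 false calls. The changed genes were drawn from the most abundant ones, with a simulated dispersion of 0.1, so recovery of low genes was not measured.

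Libraries were the replicates, and the labels do not tie each to an animal beyond its number. The edgeR test judges each gene by a spread estimated in part from all genes. In the interaction with Retnlb-negative cells and in the contrast within the Lgr5+ sort, p-values were close to normal tails of the log2 difference over its SE. There a gene's own spread between libraries had almost no weight. Whether same-numbered libraries pair could not be decided. Their deviations correlated at r = 0.14 over 763 genes, but with only 2 pairs and with 3332 UMIs in WT nTnG 2. The numbers name no shared litter or day, so the main fits used no pairing.

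The members and the 24 gene lists (mucus, glycosylation, folding, stress, secretory factors, antimicrobial, type 2, regional identity, immune, death, cycle and cell type markers) were chosen with earlier results of these data known. Genes were named by rule. The rule covers the rule genes and markers and Setdb1. In the genotype comparison it takes up to 12 genes per direction with adjusted p under 0.05, absolute log2 fold change of at least 1 and no overlap, or where fewer than 5 passed the 5 non-overlapping genes of smallest p. It adds the 20 highest and 15 lowest genes by the least favourable library ratio of CPM + 10, members of the lists that passed or up to 4 of each list, and up to 5 genes per interaction. Genes that divide the members by Zg16 or by Mptx1, and cells outside the rule, were chosen after their values were seen. Of the promoter table, Mptx1 and Nupr1 are shown, and Retnlb and Clca1 had no entry.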

Additional observations from a re-analysis of the deposited data

Results flagged for a closer look

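The genotype effect differed between Retnlb-positive and Retnlb-negative goblet cells of the lineage-traced libraries for 5 named genes, by the edgeR interaction term. The log2 differences, positive minus negative, were 7.02 for Mptx1, 6.79 for Spink1, 2.49 for Zg16, 3.64 for Ang4 and 3.39 for Sycn. Without Setdb1-KO nTnG 2 the differences of Spink1, Ang4 and Sycn were smaller, as given above. The share of cells poor in Zg16 and Tff3 also differed between genotypes and classes, and its part was not tested. The effect differed between the lineage-traced cells and the Lgr5+ sort for 5 more, with log2 differences, lineage-traced minus Lgr5+ sort, of 4.30 for Clca1, -4.67 for Defa30, -6.31 for Lyz1, -4.38 for Defa22 and -6.17 for Defa17. The Lgr5+ values rest on 15 cells, and leaving out WT nTnG 1 left none of these 5 past the threshold. Zg16, Clca1 and the defensins were used in the choice of cells.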

How the results depend on the processing

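Shares in the lineage-traced libraries kept their direction in all alternatives, with a difference between genotypes of 1.94 to 3.68 percentage points among goblet cells. In the genotype comparison 7 genes passed; the count was 11 without a filter on low counts, 2 by DESeq2's Wald test, 4 with DESeq2 size factors, 3 with TMM over all genes, 12 at Retnlb of at least 2 UMIs and 12 at 5, 16 at Retnlb of 0.1% of UMIs, 16 at mucus genes of 3%, 4 without high doublet scores, 1 with thinned members, and 9 to 21 when each library was left out. The replicate block gave 28, and 18 in the comparison with the Lgr5+ sort, where the pairing is by number alone; in the genotype comparison it also called Zg16 at 2.31, Reg4 at 1.60, Phgr1 at 1.36 and Ifitm3 at 7.19. The interaction with Retnlb-negative cells gave 11 genes, 5 by DESeq2 and 3 to 14 with a library left out. The interaction with the Lgr5+ sort gave 5 genes, 15 without the filter, 3 with TMM over all genes and 0 to 26 with a library left out. In the Lgr5+ sort 23 genes passed, 17 of them outside the rule. The count was 3 by DESeq2, 11 at Retnlb of 5 UMIs, 12 at 0.1%, 9 thinned and 10 to 18 with a library left out. Without WT nTnG replicate 1, Fcgbp turned from -0.02 to 3.58 and Defa17 in the comparison with the Lgr5+ sort from -6.17 to 2.89; over all left-out libraries they ranged from -0.54 to 3.58 and from -8.11 to 2.89. TMM over all genes, the design replaced after the simulated-data test, and the fit without 1 Mptx1-rich cell (8 genes, and 10 in the interaction with Retnlb-negative cells) were listed as alternatives after seeing the data. Other scalings moved the all-gene median from -0.08 to 0.10 and 0.08. The causes of these changes were not tested. The 2 cells of WT nTnG 2 limit every genotype value. At mucus genes of 3% that library had 0 members, so WT was 1 library of 7 cells, and at Retnlb of 5 UMIs it had 1 member. At Retnlb of 0.1% both Lgr5+ WT libraries had 0 positive cells.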
